A study of Mus musculus with 4 samples.

Results

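Glycolytic enzymes were examined in T8 leukemia cells with and without forced IRF4 re-expression. The 10 enzyme genes were taken as a list of names, with no measured value in its rule, although the list was proposed with earlier results of these data known: the hexokinases *Hk1* and *Hk2*, the glucose-6-phosphate isomerase *Gpi1*, the phosphofructokinases *Pfkl* and *Pfkp*, the aldolase *Aldoa*, the phosphoglycerate kinase *Pgk1*, the enolase *Eno1*, the pyruvate kinase *Pkm* and the lactate dehydrogenase *Ldha*. They are 10 of the 55359 gene identifiers that were counted. T8 is a cell line grown out of 1 primary preB cell leukemia of an *Irf4*-/- mouse, so all libraries are labelled *Irf4*-/- and come from 1 tumor. The cells were transduced with an empty retrovirus that carries only the GFP reporter (EV-RV) or with one that also carries IRF4 (IRF4-RV), and total RNA of cells still viable a day later was sequenced, with 2 libraries per group. The comparison asks what IRF4 re-expression changes in the transcriptome of these leukemia cells. The protocol text of the labels names T11 cells, another tumor line, while titles and tissue name T8, and the libraries were used as T8.

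Glycolysis splits glucose into pyruvate in the cytosol and yields ATP without oxygen. Hexokinase traps glucose in the cell as glucose-6-phosphate, phosphofructokinase commits it to the pathway, phosphoglycerate kinase and pyruvate kinase form ATP, and lactate dehydrogenase turns pyruvate into lactate and thereby restores NAD+. Most of these steps have several isozymes, each from a gene of its own. Proliferating lymphoid cells and leukemias are known for a high glycolytic rate, and HIF-1 and MYC are known activators of many of the genes.

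The promoters of the 3 genes that passed the test below are shown because HIF-1 is known to bind the hypoxia response element core ACGTG, and MYC the E-box CACGTG. Each line holds the 250 bases before a RefSeq start (for *Ldha*, the first in position) on GRCm38.p6, read 5′ to 3′ on the strand of the gene. Capitals mark ACGTG on the strand shown and CACGT, which is ACGTG on the other strand, and both overlap within an E-box. *Hk2* was read from chr6:82774455-82774704 (minus strand), *Ldha* from chr7:46845554-46845803 (plus strand) and *Gpi1* from chr7:34230337-34230586 (minus strand).
Hk2: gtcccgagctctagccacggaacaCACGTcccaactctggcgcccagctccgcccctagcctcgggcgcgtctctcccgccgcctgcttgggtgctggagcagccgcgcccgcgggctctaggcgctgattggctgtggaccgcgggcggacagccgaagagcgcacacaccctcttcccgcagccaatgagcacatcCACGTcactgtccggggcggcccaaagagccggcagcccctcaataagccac
Ldha: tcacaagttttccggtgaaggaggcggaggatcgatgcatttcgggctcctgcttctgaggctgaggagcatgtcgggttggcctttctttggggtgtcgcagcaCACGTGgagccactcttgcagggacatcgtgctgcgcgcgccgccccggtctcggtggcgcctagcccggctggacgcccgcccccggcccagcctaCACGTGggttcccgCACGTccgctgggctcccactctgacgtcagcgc
Gpi1: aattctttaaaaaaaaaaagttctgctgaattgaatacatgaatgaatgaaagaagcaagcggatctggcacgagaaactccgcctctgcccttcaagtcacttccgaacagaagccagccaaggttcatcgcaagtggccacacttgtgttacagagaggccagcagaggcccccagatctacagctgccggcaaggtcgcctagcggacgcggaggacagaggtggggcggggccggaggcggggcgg
ACGTG was found on either strand in the *Hk2* promoter at 226 and 52 bases before the start. RefSeq gives *Ldha* a second start, whose window held neither ACGTG nor an E-box. In the *Ldha* promoter shown, ACGTG was found 5 times, with E-boxes at 145 and 48 bases before the start, each of which holds it on both strands. The *Gpi1* window held neither. RefSeq gave 17 promoters for the 10 genes, and ACGTG was found in 6 of these, against 16.6% of all 32851 mouse promoters of the same length. The 6 belong to *Hk2*, *Aldoa*, *Pgk1*, *Pkm* and *Ldha*. The *Aldoa* matches, at 126 and 202 bases before their starts, are the same site in overlapping windows and are counted separately. Windows of *Eno1* overlap too, so the 17 are not independent and the shares were not compared by a test. The E-box was found in 1 of the 17, against 6.02% of all promoters. An IRF-type motif, GAAANNGAA on either strand, was found in 1 of the 17, at *Pgk1*, against 7.13% of all promoters. A match describes the letters of the window and not binding.

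Total counts were 31686715 and 31230223 for EV-RV, against 34771970 and 37817752 for IRF4-RV. *Irf4* (ENSMUSG00000021356) was read at 241.9 and 241.0 CPM (counts divided by library size, after TMM correction) with EV-RV and at 2822 and 2491 CPM with IRF4-RV, and reads of the vector and of the endogenous locus are not separated. The EV-RV vector carries no *Irf4*, so the EV-RV reads go against a complete absence of the transcript, and counts per gene do not show which part of the gene is deleted, so the genotype could not be checked. Markers of the B lineage were present in every library, with *Cd79a* at 906.4 to 921.9 CPM, while *Rag1* had 0 to 1 counts. Of 9 B lineage markers tested, 2 were higher with IRF4-RV and 2 were lower, beside 29.7% called in either direction over all genes tested. The higher ones were *Blnk* (log2 fold change 1.04) and *Ptprc* (0.53). The lower ones were the surrogate light chain genes *Vpreb1* (log2 fold change -1.49) and *Igll1* (-1.30). The 9 myeloid markers together had 5 to 13 counts per library, with 3 of them at 0 in all libraries. The 9 T and NK cell markers summed to 4.83 and 5.30 CPM with EV-RV and to 6.998 and 6.62 CPM with IRF4-RV, with 3 of them at 0 throughout. Of the 2 tested, *Cd28*, named after its values were seen, was higher (log2 fold change 0.54), and its part in the results was not tested. The 6 erythroid markers summed to between 12.2 and 15.9 CPM. The 7 stromal markers summed to 49.8 and 93.8 CPM with EV-RV and to 48.9 and 232.2 CPM with IRF4-RV, the highest in IRF4-RV replicate 2, and 0 of the 6 tested passed the test (edgeR), with 0 at an unadjusted p under 0.05 and 0 called by DESeq2. T8 cells were first established on ST2 stromal cells and, per the paper, no longer needed them after several passages. The source of the stromal reads was not tested.

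The enzyme genes differed widely in level. Levels between genes are compared per length, as TPM, which divides counts by the union of the annotated exons before scaling. With EV-RV, *Ldha* was highest at 1626 and 1657 TPM, followed by *Eno1* at 1264 and 1170 TPM and *Pgk1* at 876.6 and 819.0 TPM. *Aldoa* at 813.2 and 732.5 TPM and *Pkm* at 789.6 and 672.5 TPM overlapped and could not be ordered. In TPM, the enzymes from aldolase onward thus lay above those of the first steps in these libraries. The size of this gap depends in part on the length divisor. The exon union is 6452 bases for *Gpi1* and 2244 for *Pgk1*, while with EV-RV their CPM lay close (780.0 and 771.1 against 847.5 and 851.2). *Gpi1* was read at 280.6 and 258.0 TPM and *Pfkl* at 73.9 and 60.9 TPM. The lowest were *Hk2* at 28.3 and 21.8 TPM, *Pfkp* at 20.0 and 18.0 TPM and *Hk1* at 8.76 and 6.04 TPM. The exon union of *Pfkp* spans 13401 bases, the longest of the 10 and 748 of them shared with *Pitrm1* on the other strand, and a long union lowers its TPM. With IRF4-RV, *Aldoa* at 801.2 and 803.1 TPM lay above *Pkm* at 706.8 and 685.5 TPM. At the low end, *Pfkp* at 16.8 and 15.4 TPM and *Hk2* at 16.3 and 14.5 TPM overlapped, and the other genes kept their places by mean.

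**Figure D1:**
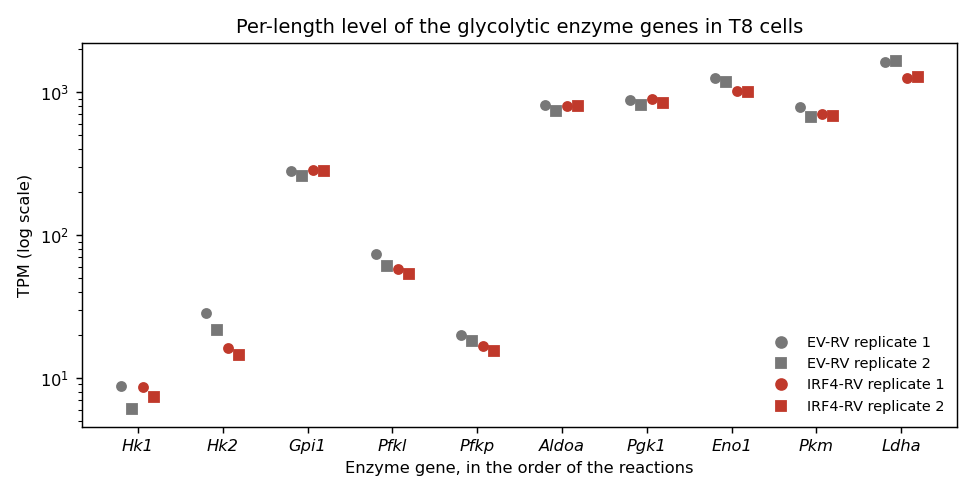
Per-length level (TPM, logarithmic axis) of the 10 glycolytic enzyme genes, in the order of the reactions, with 1 point per library, EV-RV in grey and IRF4-RV in red. *Ldha* and *Eno1* lie above 1000 TPM in all libraries, and *Hk1* lies below 10 TPM.

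Of the 10 genes, all of which were tested, *Hk2* and *Ldha* were lower with IRF4-RV, *Gpi1* was higher and 7 did not pass the test (edgeR, Benjamini-Hochberg adjusted over all 14637 genes tested, FDR 0.1). Over all genes tested, 29.7% passed, 16.0% higher and 13.7% lower, so that 3 of 10 is close to the background. The log2 fold changes of IRF4-RV over EV-RV ran from -0.58 to 0.24 with a median of -0.03, beside a median of 0.01 over all genes tested. Of the 10 enzyme genes, 0 changed by more than 1 on the log2 scale, which is near the share of 8.65% (1266 genes) over all genes tested. The median size of the change, without its sign, was 0.16 for the enzymes and 0.24 for all genes tested. The groups did not overlap for 8 of the 10 genes, beside 61.3% of all genes tested. In bulk RNA, fewer cells of a type and less RNA per cell cannot be told apart.

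**Figure D2:**
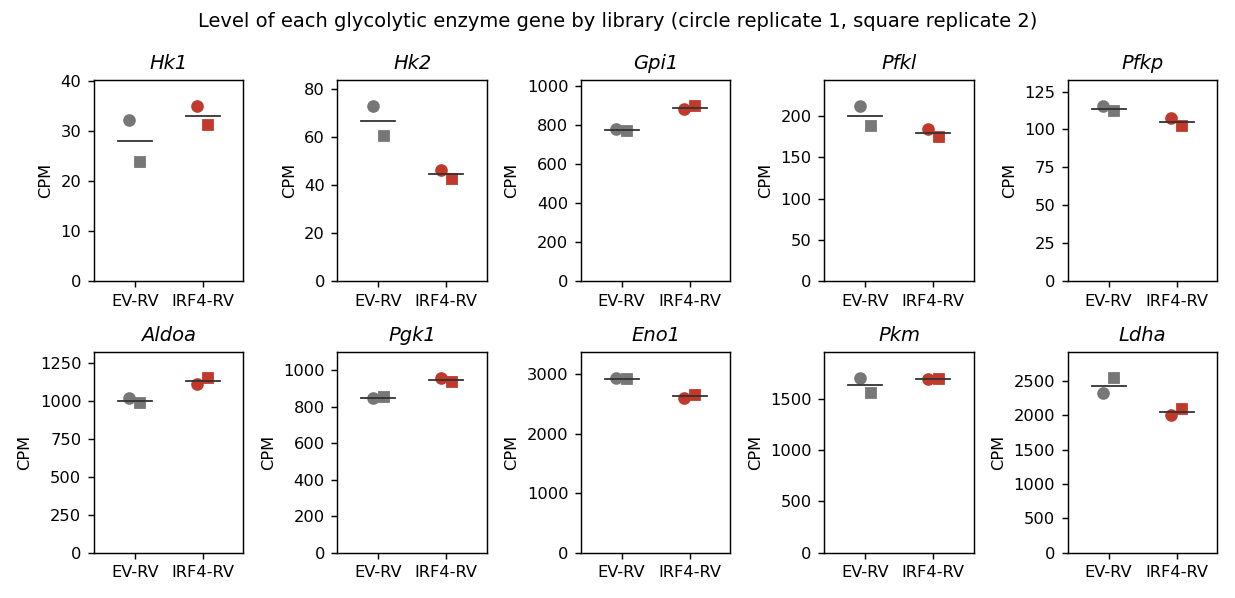
Level of each glycolytic enzyme gene in CPM, on axes that start at 0, with 1 point per library (circle replicate 1, square replicate 2) and lines at the group means. The groups are apart for 8 genes and overlap for *Hk1* and *Pkm*.

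*Hk2*, the inducible hexokinase of proliferating cells and many tumors, showed the largest change of the 10. *Hk2* (ENSMUSG00000000628, GRCm38 chromosome 6, 82725025 to 82774454, minus strand) was read at 72.7 and 60.3 CPM with EV-RV and at 46.3 and 42.5 CPM with IRF4-RV. Both IRF4-RV libraries lay below both EV-RV libraries. Its group means were 66.5 ± 8.80 CPM and 44.4 ± 2.67 CPM (SD, n = 2 per group). On the log2 scale it fell by 0.58 (SE 0.11, edgeR adjusted p = 0.00756), which is a change of -33.2%. It passed the test without each library in turn, with log2 fold changes from -0.71 to -0.45.

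*Hk1*, the hexokinase found in most tissues, did not pass. *Hk1* (ENSMUSG00000037012, chromosome 10, 62268855 to 62379908, minus strand) was read at 32.2 and 23.9 CPM with EV-RV and at 35.0 and 31.1 CPM with IRF4-RV, and the groups overlapped. Its log2 fold change was 0.24 (95% interval -0.10 to 0.57, edgeR adjusted p = 0.296). Without EV-RV replicate 1 it passed, at 0.46 (edgeR adjusted p = 0.0445), whereas it was 0.04 without EV-RV replicate 2 (edgeR adjusted p = 0.860) and 0.13 without IRF4-RV replicate 1 (0.640). An antisense gene, *Hk1os*, shares 157 of its 8532 exonic bases, and reads of both cannot be told apart where counting did not use the strand.

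The makeup of the hexokinase step moved with IRF4-RV. *Hk2* made up 69.3% and 71.6% of the counts of *Hk1* and *Hk2* in the EV-RV libraries, against 57.0% and 57.7% in the IRF4-RV libraries. The groups were apart, with means of 70.5 ± 1.63% and 57.4 ± 0.52% (SD, n = 2 each), a difference of -13.1 percentage points. The exact two-sided permutation test gave p = 0.333, the smallest that 2 libraries against 2 allow, so that this ratio cannot pass a test of its own. Summed over both genes, the step was read at 104.9 and 84.1 CPM with EV-RV and at 81.3 and 73.7 CPM with IRF4-RV (exact permutation p = 0.333).

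**Figure D3:**
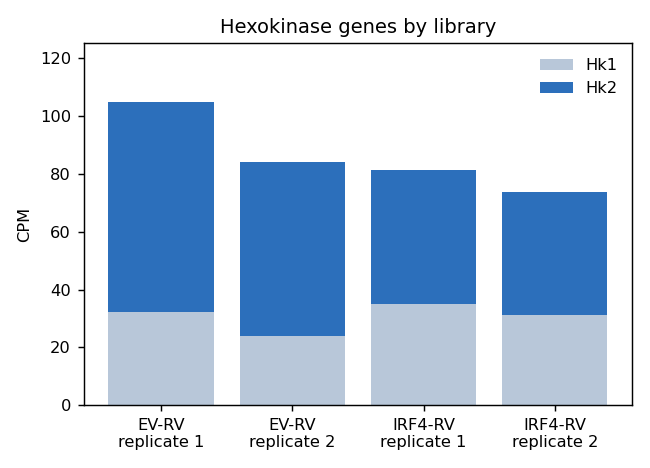
Stacked bars of *Hk1* (light) and *Hk2* (dark) in CPM for each of the 4 libraries. The *Hk2* part is smaller in both IRF4-RV libraries, at 46.3 and 42.5 CPM, than in both EV-RV libraries, at 72.7 and 60.3 CPM.

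*Gpi1*, which turns glucose-6-phosphate into fructose-6-phosphate, was the gene that rose. *Gpi1* (ENSMUSG00000036427, chromosome 7, 34201330 to 34230336, minus strand) was read at 780.0 and 771.1 CPM with EV-RV and at 883.6 and 898.3 CPM with IRF4-RV. The replicates lay close together and the groups were apart. The log2 fold change was 0.20 (SE 0.07, edgeR adjusted p = 0.0761), or 14.9%. The call was lost without any one of the 4 libraries (edgeR adjusted p = 0.109 without EV-RV replicate 1, 0.133 without EV-RV replicate 2, 0.380 without IRF4-RV replicate 1 and 0.421 without IRF4-RV replicate 2), while the log2 fold change stayed between 0.19 and 0.20. Scaled by library size only, it was 0.11 (edgeR adjusted p = 0.245). A noncoding gene on the other strand, *Gm26762*, shares 741 of its 6452 exonic bases.

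The phosphofructokinases catalyse the committed step and did not pass. *Pfkl*, the liver type (ENSMUSG00000020277, chromosome 10, 77986947 to 78010083, minus strand), was read at 212.4 and 188.1 CPM with EV-RV and at 185.0 and 175.2 CPM with IRF4-RV. *Pfkp*, the platelet type (ENSMUSG00000021196, chromosome 13, 6579768 to 6648777, minus strand), was read at 115.4 and 112.0 CPM with EV-RV and at 107.5 and 102.0 CPM with IRF4-RV. The IRF4-RV libraries were the lower ones for both genes. The log2 fold change of *Pfkl* was -0.15 (95% interval -0.35 to 0.04, edgeR adjusted p = 0.247). That of *Pfkp* was -0.12 (95% interval -0.29 to 0.06, edgeR adjusted p = 0.313). *Pfkp* made up 35.2% and 37.3% of the counts of both genes with EV-RV and 36.8% in each IRF4-RV library, which lie between the EV-RV values (exact permutation p = 1).

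*Aldoa* and *Pgk1* lay higher with IRF4-RV in both libraries and did not pass. *Aldoa*, which cleaves fructose-1,6-bisphosphate (ENSMUSG00000030695, chromosome 7, 126795234 to 126800751, minus strand), was read at 1020 and 987.6 CPM with EV-RV and at 1114 and 1153 CPM after IRF4-RV. The *Aldoa* log2 fold change was 0.18 (95% interval 0.01 to 0.34, edgeR adjusted p = 0.122). *Pgk1*, which forms the first ATP of the pathway (ENSMUSG00000062070, chromosome X, 106187100 to 106203699, plus strand), was read at 847.5 and 851.2 CPM with EV-RV and at 956.5 and 933.3 CPM with IRF4-RV. For both genes the IRF4-RV libraries were the higher ones in CPM and the groups were apart. In TPM, computed without TMM factors, the groups overlapped for both. The log2 fold change of *Pgk1* was 0.15 (95% interval -0.01 to 0.31, edgeR adjusted p = 0.159). Scaled by library size only, the log2 fold change was 0.08 for *Aldoa* (edgeR adjusted p = 0.395) and 0.06 for *Pgk1* (0.497). *Pgk1* has 4 near-identical copies in the annotation, whose counts came to 23.6% to 28.0% of its own. The copies *Pgk1-rs7* and *Gm5537* match its transcript over 1255 and 1252 bases at 100% identity, so the split of reads between them is uncertain. With all 4 copies added, the *Pgk1* log2 fold change was 0.13 (edgeR adjusted p = 0.240).

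*Eno1*, which forms phosphoenolpyruvate (ENSMUSG00000063524, chromosome 4, 150236721 to 150248879, plus strand), was read at 2930 and 2914 CPM with EV-RV and at 2604 and 2654 CPM with IRF4-RV. Both IRF4-RV libraries lay below both EV-RV libraries. The log2 fold change was -0.15 (95% interval -0.31 to 0.01, edgeR adjusted p = 0.158), or -0.17 with the counts of its 3 near-identical copies added (edgeR adjusted p = 0.117). Those copies held 20.6% to 22.9% of its counts. If reads with several alignments were counted at each place, adding copies counts them again.

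*Pkm*, which forms pyruvate and the last ATP (ENSMUSG00000032294, chromosome 9, 59656368 to 59679375, plus strand), was read at 1701 and 1558 CPM with EV-RV and at 1688 and 1690 CPM with IRF4-RV, inside the EV-RV range. Its log2 fold change was 0.05 (95% interval -0.12 to 0.23, edgeR adjusted p = 0.679), and it turned to -0.04 when libraries were scaled by size only and to -0.01 without EV-RV replicate 2. Counts per gene do not separate the M1 and M2 forms of pyruvate kinase, which come from this gene by alternative splicing. *Gm49759*, on the same strand, shares 767 of its exonic bases and had 11 to 46 counts. The near-identical copy *Gm6560* held 4.89% to 5.59% of the *Pkm* counts.

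*Ldha*, the enzyme that makes lactate, had the highest TPM of the 10 and was lower with IRF4-RV. *Eno1* had higher CPM than *Ldha* in every library over a longer exon union (5379 against 3310 bases), so their order depends on the length divisor. *Ldha* (ENSMUSG00000063229, chromosome 7, 46841475 to 46855627, plus strand) was read at 2319 and 2540 CPM with EV-RV and at 1999 and 2092 CPM with IRF4-RV, and the groups were apart. Its group means were 2429 ± 156.4 CPM and 2046 ± 65.5 CPM (SD, n = 2 per group). On the log2 scale it fell by 0.25 (SE 0.08, edgeR adjusted p = 0.056), which is a change of -15.8%. On leaving out libraries, the call held without EV-RV replicate 1 (-0.32) and was lost without EV-RV replicate 2 (-0.18, edgeR adjusted p = 0.146), without IRF4-RV replicate 1 (-0.24, edgeR adjusted p = 0.281) and without IRF4-RV replicate 2 (-0.28, edgeR adjusted p = 0.224). *Ldha* made up 99.98% to 99.99% of the counts of *Ldha* and *Ldhb* in each library. Its 4 near-identical copies held 1.36% to 2.01% of its counts, and with these added the log2 fold change was -0.25 (edgeR adjusted p = 0.0504).

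IRF4-RV replicate 2, which had the highest stromal marker level, was left out to see the values without it, and the part of stromal RNA in the results was not tested further. Without this library the log2 fold change was -0.52 for *Hk2*, -0.28 for *Ldha* and 0.19 for *Gpi1*, and the calls of the last 2 were lost as given above. Summed over the 10 enzymes, the libraries held 10030 and 10006 CPM with EV-RV and 9620 and 9771 CPM with IRF4-RV, a ratio of 0.97 (exact permutation p = 0.333, the smallest possible).

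**Figure D4:**
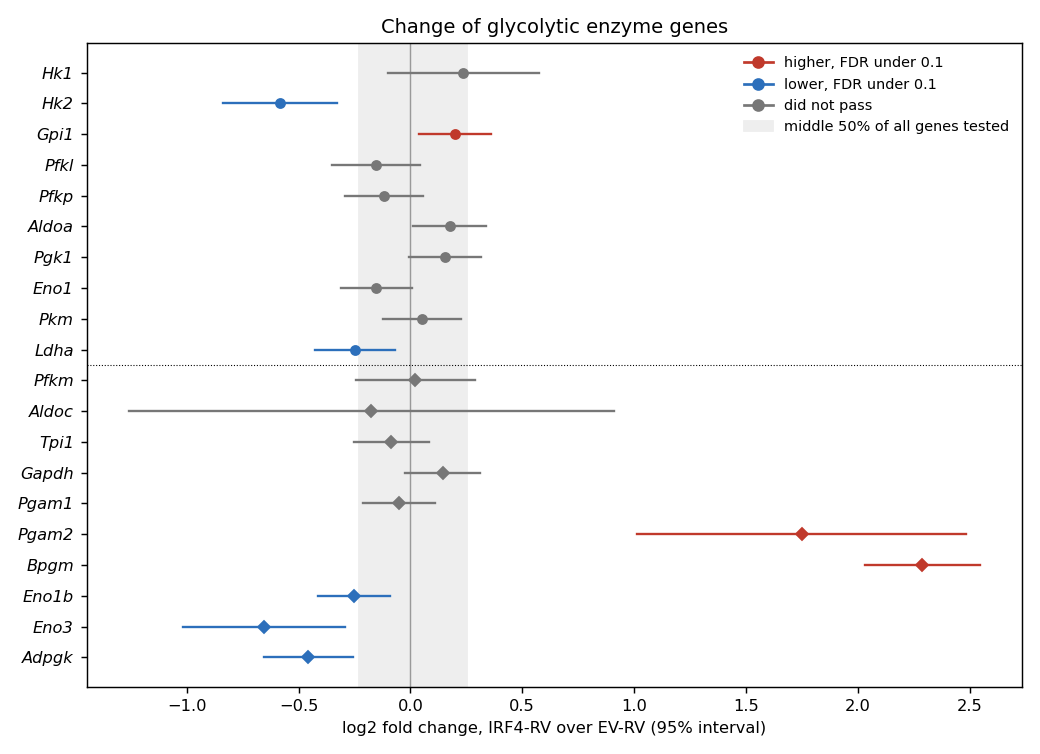
Log2 fold change of IRF4-RV over EV-RV with its 95% interval for the 10 genes (circles) and for the other glycolytic enzyme genes tested (diamonds), blue where lower, red where higher and grey where not past an FDR of 0.1. The grey band holds the middle 50% of all genes tested, and *Bpgm* and *Pgam2* lie far to its right at 2.29 and 1.75.

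The remaining enzymes of the pathway included larger changes than those of the 10. Of 22 further glycolytic enzyme genes on a list, 10 were tested, 2 were higher, 3 were lower and 5 did not pass. Over all genes tested, 29.7% passed, 16.0% higher and 13.7% lower. *Bpgm*, which makes 2,3-bisphosphoglycerate by a side path of glycolysis, was read at 9.62 and 11.5 CPM with EV-RV and at 51.3 and 51.7 CPM with IRF4-RV, a log2 fold change of 2.29 (SE 0.11, edgeR adjusted p = 1.23e-05). *Pgam2*, the muscle phosphoglycerate mutase, was read at 0.54 and 0.67 CPM with EV-RV and at 1.95 and 2.11 CPM with IRF4-RV, a log2 fold change of 1.75 at a low level (edgeR adjusted p = 0.00645). *Pgam1*, the main phosphoglycerate mutase, had a log2 fold change of -0.05 (95% interval -0.21 to 0.11). Its copy *Pgam1-ps2* matches it over 765 bases at 100% identity and had 5010 to 5556 counts, so the split of reads is uncertain. The genes that fell were *Eno3*, the muscle enolase (-0.65), *Adpgk*, an ADP-dependent enzyme that phosphorylates glucose (-0.46), and *Eno1b* (-0.25), a near-identical copy of *Eno1* whose reads are uncertain and whose call was lost without IRF4-RV replicate 1 (edgeR adjusted p = 0.155) or 2 (0.273). The others gave log2 fold changes of 0.14 for *Gapdh*, -0.09 for *Tpi1*, 0.02 for *Pfkm* and -0.17 for *Aldoc*, none past the test. Those of *Pfkm* and *Aldoc* changed sign under other scalings or without a library. *Gapdh* has many near-identical copies, among them *Gm10359* and *Gm12671* at 100% identity over 1002 bases, so its reads are uncertain too.

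Across 8 lists of glucose metabolism, those 22 enzymes included, 105 further genes were listed and 77 were tested. Of the 77, 15 were higher and 9 lower, close to the 29.7% called over all genes tested. The median log2 fold change of the 77 was 0.03. Scaled by library size only, 11 were higher and 16 lower, and over all genes the share of higher genes among those called went from 53.8% to 37.8%. Of the 24 called, 14 were called without each library in turn and 10 were not called without at least 1.

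Of 8 glucose and lactate transport genes tested, 1 was higher and 1 lower, a share close to the 29.7% called over all genes. *Slc2a6*, a sugar transporter of the GLUT family, had 4 counts in each EV-RV library and 110 and 147 with IRF4-RV, or 0.12 and 0.13 CPM against 3.25 and 4.04 CPM. The log2 fold change was 4.84 (SE 0.36, edgeR adjusted p = 8.25e-05), from a level close to the 3 counts taken as the lowest that can be shown. *Slc16a1*, the lactate carrier MCT1, was read at 434.6 and 501.7 CPM with EV-RV and at 388.9 and 367.8 CPM with IRF4-RV (log2 fold change -0.31, edgeR adjusted p = 0.0426). Its call was lost without EV-RV replicate 2 (edgeR adjusted p = 0.152) or IRF4-RV replicate 2 (0.227).

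Regulators of flux and of the use of pyruvate moved at single genes. Of 11 flux regulators tested, *Txnip*, known to curb glucose uptake, was higher (log2 fold change 0.66). *Pdk1*, a kinase that shuts pyruvate dehydrogenase, was lower (-0.62). The other 9 did not pass, beside 29.7% called over all genes tested. Among the 9 were the related kinases *Pdk2* (0.22) and *Pdk3* (-6.0e-05), named here after their values were seen. *Pdk1* was read at 172.6 and 156.2 CPM with EV-RV and at 106.5 and 107.6 CPM with IRF4-RV (edgeR adjusted p = 0.00136). Among 8 genes of pyruvate entry into mitochondria, 2 were higher and 0 were lower, beside 16.0% and 13.7% of all genes tested. *Mpc2*, part of the mitochondrial pyruvate carrier, was read at 33.8 and 40.0 CPM with EV-RV and at 81.0 and 88.3 CPM with IRF4-RV, a log2 fold change of 1.20 (SE 0.10, edgeR adjusted p = 0.000201). *Pdhb*, a subunit of pyruvate dehydrogenase, had a log2 fold change of 0.25 (edgeR adjusted p = 0.0477), which was not called without EV-RV replicate 1 or either IRF4-RV library (edgeR adjusted p = 0.172, 0.197 and 0.261).

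The transcription factors on the list of known activators included the largest fall past the test on these lists. *Myc* was read at 279.4 and 282.8 CPM with EV-RV and at 141.8 and 123.0 CPM with IRF4-RV, a log2 fold change of -1.09 (SE 0.09, edgeR adjusted p = 0.000133). *Usf1*, an E-box binding factor, rose from 48.6 and 44.5 CPM to 75.8 and 77.2 CPM (0.72, edgeR adjusted p = 0.000842). *Mlxip* (0.44) and *Arnt* (0.31), the partner of HIF-1α, were higher too, and neither was called without EV-RV replicate 2 (edgeR adjusted p = 0.171 and 0.184) or IRF4-RV replicate 1 (0.265 and 0.374). *Hif1a*, named here after its values were seen, was read at 91.3 and 87.3 CPM with EV-RV and at 89.4 and 88.4 CPM with IRF4-RV (log2 fold change -0.01, 95% interval -0.18 to 0.17). Whether the level of any of these factors bears on the enzymes was not tested.

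The hypoxia-response genes that are no glycolytic enzymes went both ways, with 3 of 14 tested higher and 2 lower. Over all genes tested, 29.7% were called, 16.0% higher and 13.7% lower, which is the background for every list in this paragraph. The histone demethylase *Kdm3a* (0.70) and the collagen prolyl hydroxylase *P4ha1* (0.67) were higher, as was *Bnip3l* (0.31), which was not called without EV-RV replicate 2 (edgeR adjusted p = 0.117) or IRF4-RV replicate 1 (0.297). The repressor *Bhlhe40* was lower (-0.54). Of 8 pentose phosphate genes, *Pgls*, the lactonase, was higher (0.33), a call lost without EV-RV replicate 1 (edgeR adjusted p = 0.108) or IRF4-RV replicate 2 (0.222). Of 10 genes of gluconeogenesis and glycogen, 2 were higher and 1 lower. *Pgm1*, which links glycogen to glucose-6-phosphate, had a log2 fold change of 0.43 (edgeR adjusted p = 0.00492). *Pck2*, the mitochondrial phosphoenolpyruvate carboxykinase, had 0.28 and was not called without IRF4-RV replicate 1 (edgeR adjusted p = 0.105) or 2 (0.258), and *Gbe1*, the glycogen branching enzyme, had -0.26 and was not called without any one library (edgeR adjusted p from 0.127 to 0.290).

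**Figure D5:**
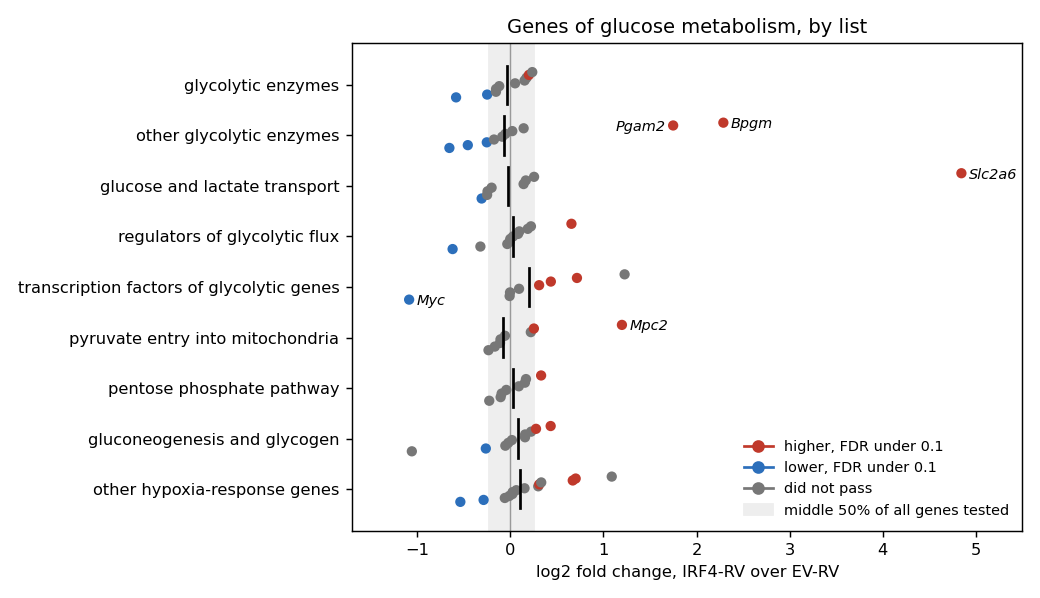
Log2 fold change of IRF4-RV over EV-RV for each gene tested on 9 lists of glucose metabolism, with black lines at the median of a list and the middle 50% of all genes tested as a grey band. The glycolytic enzymes stay within -0.58 to 0.24, and *Slc2a6*, *Bpgm*, *Pgam2*, *Mpc2* and *Myc* lie beyond a change of 1 and passed the test.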

How the data were processed

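The deposited values are raw counts per gene, which the authors made by alignment to GRCm38 with STAR (version 2.4.0j) and counting with featureCounts, per the submitters' processing notes. FastQC (version 0.11.2) was used for quality control. How strand and multiply aligned reads were handled is not given in the sources used here. Symbols came from GENCODE M21 for 52083 of 55359 identifiers, and the other 3276 lie outside that release. All 4 columns were used and 0 were left out. *Aldoa* has a second identifier with 2 to 6 counts, which was not used.

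In R 4.3.3, genes kept by filterByExpr were tested using edgeR 4.0.16 (TMM factors, quasi-likelihood F test, Benjamini-Hochberg adjustment over all genes tested, FDR 0.1). CPM use library sizes corrected by TMM factors, which ran from 0.964 to 1.05. TPM were computed from exon unions without TMM, so fold changes were taken from counts only. At these depths 3 counts are 0.0824 to 0.0952 CPM, a limit that covers counting error only. Replicates, called biological replicates by the design text, differed by more than sampling noise (chi-square per degree of freedom 15.1 and 14.2). Their cultures are not described further, so p-values measure the spread between these libraries. Near-identical copies were found with blastn 2.17.0+ (at least 95% identity over at least 200 bases). Promoters came from RefSeq. Named genes were the 10 enzymes, *Irf4*, other glycolytic enzymes tested and, per further list, up to 4 called genes with the largest change. Members and lists were chosen with earlier results of these data known. The procedure was tested on simulated data, and the outcome of that run is not reported here. Alternatives were DESeq2 1.42.0, DESeq2's size factors, library size only, 2 other filters, the replicate block, an FDR of 0.05, leaving out each library and adding the copies. Some listed genes are not reported here by name.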

Additional observations from a re-analysis of the deposited data

How the results depend on the processing

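*Hk2* was lower and called under all 12 alternatives, with log2 fold changes from -0.71 to -0.45. With library size only, the median log2 fold change of the 10 enzymes was -0.125 and 4 were called, all lower, with *Pfkp* and *Eno1* in place of *Gpi1*. At an FDR of 0.05, 1 enzyme was called. Without each library in turn, 1 to 3 were called, with 1 left without EV-RV replicate 2, IRF4-RV replicate 1 or IRF4-RV replicate 2, and the median ran from -0.07 to 0.02. In these fits the single library of a group is assumed to vary like the other group. Without the filter on low counts 2 were called, and with DESeq2, DESeq2's size factors, the stricter filter or the copies added 3. Over its alternatives the edgeR or DESeq2 adjusted p ran from 0.0017 to 0.421 for *Gpi1* and from 4.19e-05 to 0.281 for *Ldha*. The *Hk2* share of the hexokinases per length differed by -11.53 percentage points. With the replicate number as a block, 8 enzymes were called (4 higher, 4 lower), 39 of the other genes of glucose metabolism (24 higher, 15 lower) and 6394 of all genes. The labels do not say that a number marks a shared culture, same-numbered libraries correlated at 0.284 in their deviations from the group means, and 5 of the 10 enzymes deviated in the same direction. For single genes, 394 of 450 values kept their side of the threshold, of which 387 kept their direction and 7, uncalled for *Pkm*, *Pfkm* and *Aldoc*, turned sign. A further 47 lost the call, 9 gained it and 0 called values reversed. Depth was no limit for the 10 enzymes, whose lowest count was 753.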
